A study of Mus musculus with 12 samples.

Results

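The integrated stress response genes described here are the 4 kinases that phosphorylate the translation factor eIF2alpha (Eif2ak1, Eif2ak2, Eif2ak3 and Eif2ak4), the 2 phosphatase subunits that undo this mark (Ppp1r15a and Ppp1r15b) and 4 genes of the ATF4 arm (Atf4, Atf5, Ddit3 and Trib3). They were chosen by symbol, and all 10 were found among the 24221 genes of the authors' deposited table. The cells were mouse acute myeloid leukaemia cells of the C57BL/6 strain that carry the MLL-AF9 fusion and, per the labels, Riok2fl/fl alleles. RNA was sequenced 72 h after the addition of hydroxytamoxifen (OHT, 3 samples) or its vehicle ethanol (EtOH, 3 samples). OHT switches on tamoxifen-dependent Cre recombinases, which cut out sequence between loxP sites, although the labels do not name the Cre. The MLL-AF9 cells given a RIOK2 inhibitor at 1 µM (3 samples) or DMSO (3 samples) were not analysed here. RIOK2 is an atypical kinase needed for the last, cytoplasmic steps in the maturation of the small ribosomal subunit.

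The integrated stress response lets a cell slow translation when it is short of amino acids or heme, loaded with unfolded protein in the endoplasmic reticulum, or infected. Each trigger acts through its own kinase, and all these kinases phosphorylate eIF2alpha, which blocks the exchange factor eIF2B and lowers the supply of initiator tRNA to ribosomes. Most translation falls, while mRNAs with suitable upstream reading frames, that of the transcription factor ATF4 among them, are translated better. ATF4 then raises genes of amino acid supply and tRNA charging, together with CHOP (Ddit3), ATF5, TRIB3 and the phosphatase subunit GADD34 (Ppp1r15a), which closes the loop. Kinase activity, eIF2alpha phosphorylation and ATF4 protein were not measured in this assay, which reads steady RNA levels.

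The authors deposited 1 comparison and no values per library, and a gene with reads is described by a base mean (normalised reads averaged over the libraries), a log2 fold change and the standard error (SE) of that fold. An adjusted p-value was given for 13814 of the 24221 rows, and 6693 rows had a base mean of 0. The column does not name its numerator. In the authors' deposited table the value for Riok2 itself was -3.60 ± 0.20 (SE, adjusted p = 7.8e-69), and this negative sign is why every fold here is taken as OHT relative to EtOH. The base means of all genes added up to 20307732 normalised reads in the authors' deposited table. No cells without floxed alleles received OHT in this comparison, so the loss of Riok2 and exposure to OHT cannot be told apart. Nothing in the labels tells whether replicates came from different cultures, and the p-values then measure only the spread between these samples. These are bulk samples, in which fewer cells of a type and less RNA per cell cannot be told apart. The myeloid maturation markers moved with the treatment: all 11 neutrophil markers tested (median log2 fold change 2.44, range 1.64 to 3.37) and all 10 monocyte and macrophage markers (median 2.61, range 1.23 to 4.39) rose in OHT. Over all genes tested, 25.5% were higher and 23.4% lower. The 7 erythroid and megakaryocyte and the 3 mast cell markers tested of 6 did not pass, and 3 of 5 lymphoid markers rose and 2 fell. A base mean under 100 limits 3 of these 5 lymphoid markers, 4 of the 7 erythroid and megakaryocyte markers and 1 of the 10 monocyte and macrophage markers. The lymphoid marker Cd3e and the globin genes Hba-a1 and Hbb-bs had a base mean of 0. The other 3 mast cell and granulocyte markers, Mcpt8 (base mean 3144), Prg2 (2880) and Epx (379), were among 51 genes for which the authors' deposited table has a fold without a p-value, and the SE of Cpa3, the most abundant mast cell marker, was 0.62 there. The part of these markers in the results below was not tested.

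Among the stress response genes, 3 fell in OHT, 1 rose and 6 did not pass the authors' adjusted p-value of 0.05. The 3 that fell, Atf4, Atf5 and Trib3, all belong to the effector arm, and the 1 that rose was the kinase gene Eif2ak3. Over the 13814 genes tested, 48.9% passed the threshold, 23.4% lower and 25.5% higher in OHT, so 4 of 10 members passing is no more than the background. In size, 3 of the 10 members passed with a log2 fold change of -1 or below, where 7.3% of all genes tested did. Among genes called lower, such a fold was seen in all 3 members and in 1009 of the 3231 genes over the whole table. The median log2 fold change was -0.19 over the 10 members and 0.05 over all genes tested.

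**Figure D1:**
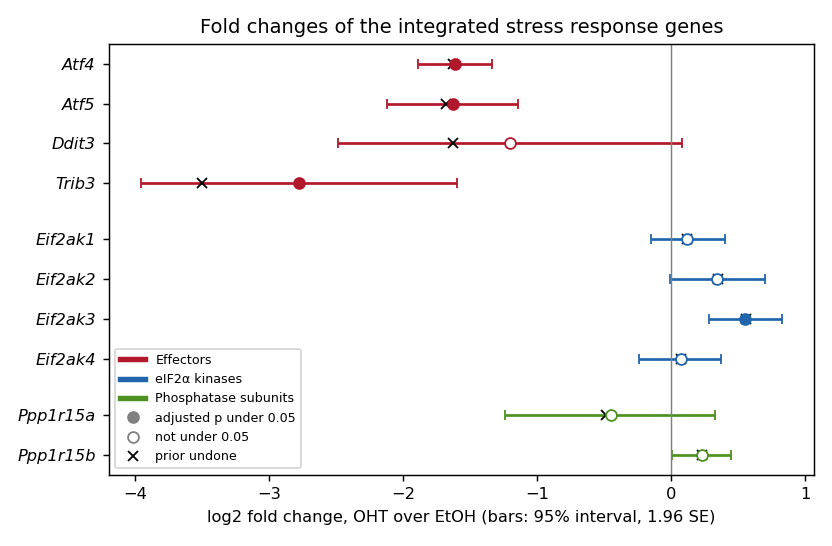
Log2 fold change (x axis, OHT over EtOH) of the 10 genes, one per line, coloured by role, with bars for the 95% interval from the authors' SE and filled points for an adjusted p under 0.05. Crosses give the fold with the inferred prior undone; Atf4, Atf5 and Trib3 lie left of -1 with intervals below 0, while the kinase points lie between 0.07 and 0.55.

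Atf4 (ENSMUSG00000042406.8, GRCm38 chromosome 15, 80255184 to 80257541, plus strand, 3 exons) encodes the transcription factor at the centre of the response. Its log2 fold change was -1.61 ± 0.14 (SE), at an adjusted p of 2.3e-29, in the authors' deposited table. This corresponds to an OHT level at 32.6% of the EtOH level (95% interval 27.0 to 39.4%). With a base mean of 14012 in the authors' deposited table it was the most abundant member, and the base mean and fold together give about 6898 normalised reads per library in OHT and 21127 in EtOH. Per kb of its GENCODE transcript this is 3999 in OHT and 12248 in EtOH, the highest level per length of the 10 genes in both groups. Of the 9888 tested genes whose base mean reached 100, 117 (1.18%) had a lower fold change.

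Atf5 (ENSMUSG00000038539.15, chromosome 7, 44812256 to 44816658, minus strand, 3 exons) encodes a related bZIP factor that is also under translational control in the stress response. Its log2 fold change of -1.63 ± 0.25 (SE) at an adjusted p of 6.5e-10 in the authors' deposited table lay beside that of Atf4. OHT cells had 32.2% of the EtOH level (95% interval 23.0 to 45.3%), or about 1246 normalised reads per library in OHT and 3865 in EtOH. The error was wider than for most genes of its abundance: 96.1% of the 3293 tested genes with a base mean within 2-fold of its own had a smaller SE. On the opposite strand, 82 bases (4.52%) of its transcript lie in exons of Nup62, a nuclear pore gene that had a log2 fold change of -1.10 ± 0.11 (SE) in the authors' deposited table. No source used here tells whether reads were counted by strand, so reads from those bases cannot be assigned to one gene.

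Trib3 (ENSMUSG00000032715.9, chromosome 2, 152337422 to 152344032, minus strand, 4 exons) encodes a pseudokinase that ATF4 and CHOP induce and that binds both AKT and ATF4. It had the steepest fall among the members, with a log2 fold change of -2.78 ± 0.60 (SE) at an adjusted p of 1.8e-05 in the authors' deposited table. OHT cells had 14.5% of the EtOH level (95% interval 6.41 to 32.9%), about 372 normalised reads per library in OHT and 2560 in EtOH. Only 9 of the 9888 genes whose base mean reached 100 had a lower fold change. Its SE was also among the widest, larger than that of 99.3% of the 4286 genes within 2-fold of its base mean of 1466 in the authors' deposited table, where the median was 0.16. The deposited errors have the form left by a prior that pulls folds towards 0, and for Trib3 undoing it gives -3.50 ± 0.76 (SE), or 239 normalised reads in OHT and 2693 in EtOH. At so wide an SE this assumes that the data outweigh the prior, which was not tested.

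Ddit3 (ENSMUSG00000025408.15, chromosome 10, 127290774 to 127296288, plus strand, 4 exons) encodes CHOP, the factor that links a long stress response to cell death. Its log2 fold change was -1.20 ± 0.66 (SE) at an adjusted p of 0.12 in the authors' deposited table, with a 95% interval of -2.49 to 0.08. That interval covers levels in OHT from 17.8 to 106% of the level in EtOH, so neither a fall as deep as that of Atf4 nor an equal level lies outside it. The SE exceeded that of 99.3% of the 4199 genes within 2-fold of its base mean of 673 in the authors' deposited table, where the median was 0.18. With the prior undone the fold was -1.63 ± 0.89 (SE), beside -1.63 ± 0.14 for Atf4 and -1.68 ± 0.26 for Atf5. For an SE as wide as that of Ddit3 this step assumes that the data outweigh the prior, which was not tested. GENCODE M21 has 2 gene models named Ddit3 that share 105 bases of this transcript, and 68 of its bases (7.64%) lie opposite exons of Mars, which had a log2 fold change of -1.27 ± 0.13 (SE) in the authors' deposited table. No source used here tells how reads in these bases were assigned.

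**Figure D2:**
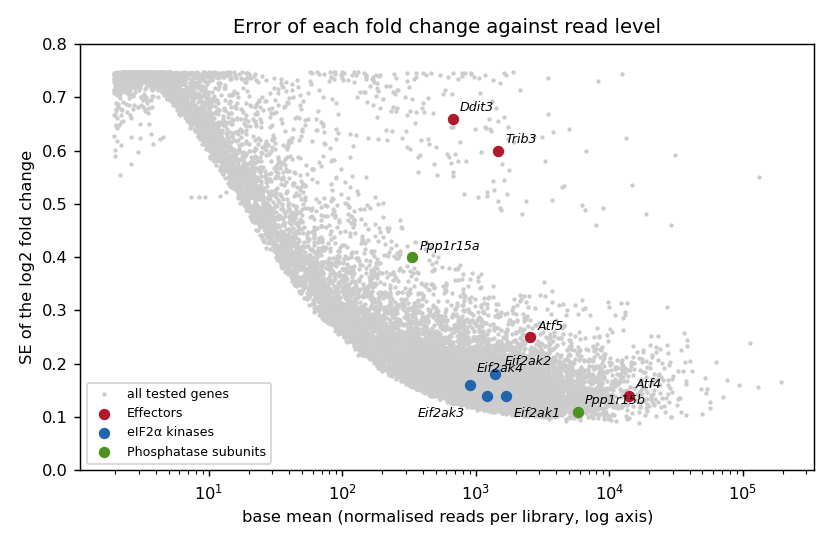
SE of the log2 fold change (y axis) against base mean (x axis, log scale) for all 13814 tested genes in grey and the 10 stress response genes in colour. Ddit3, Trib3 and Ppp1r15a stand above most genes of their read level, at 0.66, 0.60 and 0.40, while the 4 kinases and Ppp1r15b lie between 0.11 and 0.18.

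The letters upstream of the RefSeq transcription starts of the 3 genes that fell, and of Ppp1r15a, were read from RefSeq on GRCm38.p6. They are shown because ATF4 acts on such promoters through a composite element, TGATGNAAN, which joins an ATF and a C/EBP recognition site. Each line gives the 250 bases before the start, 5′ to 3′ on the gene's strand, and capitals mark the cyclic AMP response element TGACGTCA, which is its own reverse complement.
Atf4, chr15:80254934-80255183, plus strand: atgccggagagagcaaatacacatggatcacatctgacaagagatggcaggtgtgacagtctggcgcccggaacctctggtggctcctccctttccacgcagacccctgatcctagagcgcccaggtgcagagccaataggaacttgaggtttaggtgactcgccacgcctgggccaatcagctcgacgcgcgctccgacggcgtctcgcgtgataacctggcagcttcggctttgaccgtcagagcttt
Atf5, chr7:44816659-44816908, minus strand: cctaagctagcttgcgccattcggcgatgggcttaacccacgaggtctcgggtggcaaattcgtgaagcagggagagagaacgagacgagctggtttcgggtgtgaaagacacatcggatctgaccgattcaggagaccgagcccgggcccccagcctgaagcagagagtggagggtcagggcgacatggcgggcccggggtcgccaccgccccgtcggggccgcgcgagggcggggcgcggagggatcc
Trib3, chr2:152344061-152344310, minus strand: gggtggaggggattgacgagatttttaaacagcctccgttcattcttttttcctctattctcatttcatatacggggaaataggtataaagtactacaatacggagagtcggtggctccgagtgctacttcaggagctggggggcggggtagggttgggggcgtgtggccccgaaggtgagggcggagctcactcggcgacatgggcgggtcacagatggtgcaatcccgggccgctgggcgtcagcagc
Ppp1r15a, chr7:45526269-45526518, minus strand: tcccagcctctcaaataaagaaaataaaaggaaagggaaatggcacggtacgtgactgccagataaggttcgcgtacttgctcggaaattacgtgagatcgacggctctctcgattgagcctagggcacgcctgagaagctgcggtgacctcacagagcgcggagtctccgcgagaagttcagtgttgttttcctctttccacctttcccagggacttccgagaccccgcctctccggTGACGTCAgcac

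In these windows, which run from 250 bases before to 50 after the start, 9 of the 10 members have a RefSeq entry, and Atf5 and Eif2ak4 have 2 windows each, so that the shares per window are no exact measure for them. The composite element on either strand was found in 1 of the 9, Trib3, and in 3.95% of the 32851 promoter windows of the genome. It lies 14 to 22 bases after the RefSeq start on the opposite strand, in capitals in the following 30 bases.
Trib3, chr2:152344028-152344057, minus strand: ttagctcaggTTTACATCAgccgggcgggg
The longer form TTGCATCA was in none of the 9 (0.895% of all windows). The short core TGATG was in 4 of the 9 (39.3% of all windows): Trib3, Atf5, Eif2ak1 and Eif2ak4. In Atf5 it lies in the window of the other start and not in the bases printed. The cyclic AMP response element was in 1 of the 9, Ppp1r15a, 12 to 5 bases before its start (1.79% of all windows). The endoplasmic reticulum stress element was in none of the 9 (0.119% of all windows). A match is a run of letters and not a measured binding site, and a window without one says nothing of the factor.

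The upstream reading frames through which several of these mRNAs are controlled were counted in the GENCODE M21 transcripts. Of the 10 members, 7 had at least 1 AUG before the main start, 6 had at least 2 and 4 had an upstream frame that runs past the main start out of frame. Over 12516 tested genes with such a transcript these shares were 50.8%, 28.5% and 16.2%. Atf4 had 3 upstream frames in a leader of 594 bases, of 36, 3 and 59 codons, and the frame of 59 codons overlapped the main start. Atf5 had 2, a frame of 3 codons and then an overlapping one of 58 codons, in a leader of 373 bases. Ddit3 had AUGs that open frames of 34 and 31 codons, both ending before the main start. Ppp1r15a had 3 such frames, of 45, 34 and 26 codons, and Ppp1r15b 3, of 2, 8 and 51 codons. Trib3, Eif2ak1 and Eif2ak4 had none. The RNA of genes with such frames moved in both directions: Atf4 and Atf5 fell, Eif2ak3 with 3 upstream AUGs rose, and Trib3 with none fell.

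The kinase genes had small fold changes. Their log2 fold changes ranged from 0.07 to 0.55, and 1 of 4 passed the threshold, where 25.5% of all tested genes were higher in OHT. Eif2ak3 (ENSMUSG00000031668.14, chromosome 6, 70844515 to 70905245, plus strand, 17 exons) encodes PERK, the kinase in the membrane of the endoplasmic reticulum that senses unfolded protein. It rose by 0.55 ± 0.14 on the log2 scale (SE) at an adjusted p of 0.00033 in the authors' deposited table. This put its level in OHT at 147% of that in EtOH (95% interval 121 to 178%), about 1436 normalised reads per library in OHT and 979 in EtOH. Its fold was above that of 75.4% of genes whose base mean reached 100. The call was lost with a Holm adjustment (adjusted p = 0.90).

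Eif2ak2 (ENSMUSG00000024079.4, chromosome 17, 78852564 to 78882573, minus strand, 16 exons) encodes PKR, which double-stranded RNA activates and interferon induces. It had a log2 fold change of 0.34 ± 0.18 (SE) at an adjusted p of 0.11 in the authors' deposited table, with a 95% interval of -0.01 to 0.70. OHT cells had 127% of the EtOH level (95% interval 99.0 to 162%). A window around its RefSeq start holds an interferon response element, a motif added after the data were seen, in capitals in the following 30 bases (3.44% of all windows hold it, and 2 of the 9 members).
Eif2ak2, chr17:78882535-78882564, minus strand: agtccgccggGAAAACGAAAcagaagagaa
Most listed genes that interferon induces rose. Of 17 interferon genes tested, 13 rose in OHT, where 25.5% of all genes tested did, and the other 4 did not pass, with a median log2 fold change of 1.5 beside 0.05 over all genes. The antiviral GTPase gene Mx1 (2.71 ± 0.42 SE), Oasl2 (2.12 ± 0.53), the RNA sensor gene Ddx58 (1.82 ± 0.17) and the interferon feedback gene Usp18 (1.81 ± 0.57) rose in the authors' deposited table. The 9 of these 17 with a base mean under 100 rest on few reads.

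Eif2ak1 (ENSMUSG00000029613.15, chromosome 5, 143817788 to 143904251, plus strand, 15 exons) encodes HRI, which heme holds inactive. It had a log2 fold change of 0.12 ± 0.14 (SE) at an adjusted p of 0.50 in the authors' deposited table and a 95% interval of -0.15 to 0.40, so its level in OHT lay between 89.8 and 132% of that in EtOH. Of its transcript, 487 bases (11.3%) lie opposite exons of Aimp2, which had a log2 fold change of -1.19 ± 0.16 (SE) in the authors' deposited table. Among the 10 genes of heme synthesis and breakdown, 5 fell and 2 rose, where 23.4% of all genes tested were lower, with a median log2 fold change of -0.47. Cpox (-0.89 ± 0.15 SE) and Alad (-0.85 ± 0.21), enzymes of the pathway, fell in the authors' deposited table. Hmox1, the heme oxygenase that breaks heme down, rose by 3.68 ± 0.27 and Ppox by 0.73 ± 0.25 in the authors' deposited table, where Alas1, the first enzyme of synthesis, stood at 0.05 ± 0.12 (adjusted p = 0.74).

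Eif2ak4 (ENSMUSG00000005102.13, chromosome 2, 118388618 to 118475234, plus strand, 39 exons) encodes GCN2, which uncharged tRNA and stalled ribosomes activate. It had a log2 fold change of 0.07 ± 0.16 (SE) at an adjusted p of 0.76 in the authors' deposited table, with a 95% interval of -0.24 to 0.37. Per kb of transcript it was the lowest of the 4 kinases in both groups, at 177 normalised reads in OHT and 169 in EtOH, where Eif2ak1, the highest of them, had 409 in OHT and 376 in EtOH.

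Of 14 regulators of the kinases, 4 fell and 3 rose, near the 23.4% lower and 25.5% higher over all genes tested, with a median log2 fold change of -0.05. The 3 ribosomal stalk genes, whose proteins activate GCN2, fell in the authors' deposited table: Rplp1 (-1.23 ± 0.20 SE), Rplp2 (-1.09 ± 0.23) and Rplp0 (-0.96 ± 0.15). The rises were those of Impact, which inhibits GCN2 (0.68 ± 0.24), Adar, whose editing keeps cellular RNA from activating PKR (0.54 ± 0.18), and the adaptor gene Nck1 (0.81 ± 0.13) in the authors' deposited table. The fourth to fall was Dele1, which carries a mitochondrial signal to HRI and is listed under its older name 0610009O20Rik (-0.56 ± 0.14 in the authors' deposited table). It was named after its value was seen.

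Neither phosphatase subunit passed. Ppp1r15a (ENSMUSG00000040435.12, chromosome 7, 45522916 to 45526268, minus strand, 3 exons) encodes GADD34, the stress-induced subunit that brings protein phosphatase 1 to eIF2alpha. Its log2 fold change was -0.45 ± 0.40 (SE) at an adjusted p of 0.36 in the authors' deposited table, with a wide 95% interval of -1.24 to 0.33. It was the member with the lowest base mean, 336 in the authors' deposited table, and 96.4% of the 3060 genes within 2-fold of it had a smaller SE. Ppp1r15b (ENSMUSG00000046062.5, chromosome 1, 133131143 to 133139783, plus strand, 2 exons) encodes CReP, the subunit made without stress. Its log2 fold change was 0.23 ± 0.11 (SE, with p = 0.045 before and an adjusted p of 0.085 after correction) in the authors' deposited table, which places its level in OHT between 100 and 137% of that in EtOH. Per kb of transcript Ppp1r15b stood at 1124 normalised reads in OHT and 960 in EtOH, against 122 in OHT and 167 in EtOH for Ppp1r15a. Among the catalytic subunits, Ppp1cb fell by 0.33 ± 0.13 (adjusted p = 0.027), while Ppp1cc (-0.24 ± 0.14, adjusted p = 0.14) and Ppp1ca (0.05 ± 0.11, adjusted p = 0.74) did not pass in the authors' deposited table.

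**Figure D3:**
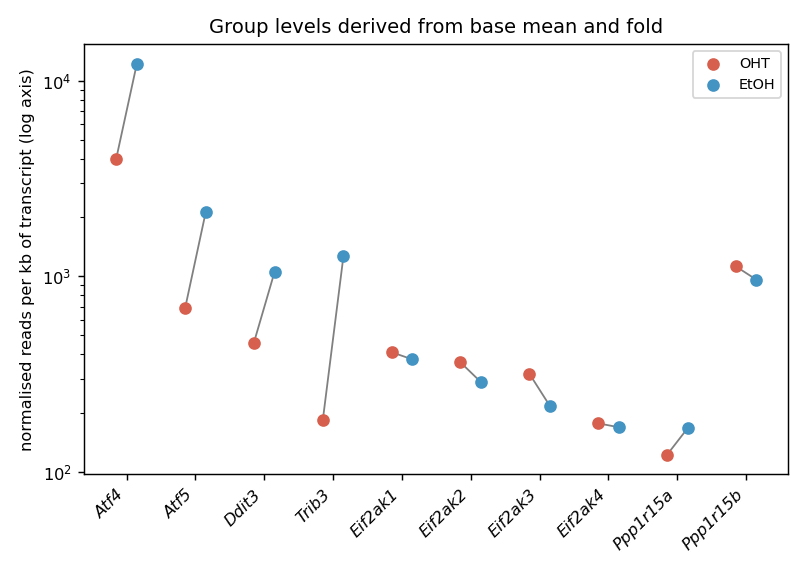
Normalised reads per kb of GENCODE transcript (y axis, log scale) in OHT (left point of each pair) and EtOH (right point), derived from the base mean and the deposited fold, with no error shown. Atf4 is highest in both groups, at 3999 in OHT and 12248 in EtOH. Among the kinase pairs that of Eif2ak3 is furthest from level, at 318 in OHT and 217 in EtOH.

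In order of their folds, the 10 genes ran from Trib3 through Atf5, Atf4, Ddit3, Ppp1r15a, Eif2ak4, Eif2ak1, Ppp1r15b and Eif2ak2 to Eif2ak3. The 95% intervals of all 9 neighbouring pairs overlapped, so no step of that order stands by itself. Of all 45 pairs, 18 had intervals that did not overlap. Atf4, Atf5 and Trib3 were each apart from all 4 kinases and from Ppp1r15b, Atf4 and Trib3 were also apart from Ppp1r15a, and Ddit3 was apart from Eif2ak3 alone. These intervals treat genes as independent, and the differences were not tested.

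Genes for the target of the kinases and for its exchange factor mostly fell. Of 9 genes of eIF2, eIF2B and eIF5, 7 fell, where 23.4% of all genes tested did, and the other 2 did not pass, with a median log2 fold change of -0.75. Among the subunits of eIF2, Eif2s2 (-1.21 ± 0.21 SE) and Eif2s1, which encodes eIF2alpha itself (-0.79 ± 0.19, adjusted p = 9.6e-05), fell in the authors' deposited table. Among those of the exchange factor eIF2B, Eif2b3 (-1.41 ± 0.19) and Eif2b1 (-1.13 ± 0.16) fell in the authors' deposited table. The most abundant gene of the list, the GTPase activator Eif5, had a log2 fold change of -0.23 ± 0.15 (adjusted p = 0.22) in the authors' deposited table.

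Among the 9 bZIP partners and regulators of ATF4 and CHOP, 3 rose and 1 fell, where 25.5% of all genes tested were higher and 23.4% lower, with a median log2 fold change of -0.02. Atf3, another stress-induced factor, rose by 2.44 ± 0.71 (SE, adjusted p = 0.0017), Nfe2l2, the antioxidant regulator, by 0.80 ± 0.12 and Cebpd by 0.80 ± 0.21 in the authors' deposited table. Cebpg, the usual dimer partner of ATF4, fell by 0.74 ± 0.25 (adjusted p = 0.0074) and Cebpb, the most abundant, had a log2 fold change of -0.16 ± 0.31 (adjusted p = 0.70) in the authors' deposited table. Among relatives of Trib3, Trib1 rose by 2.57 ± 0.25 (adjusted p = 4.4e-23), while Trib2 (1.38 ± 0.74, adjusted p = 0.11) and the ubiquitin ligase gene Rfwd2, now Cop1 (0.27 ± 0.15, adjusted p = 0.13), did not pass in the authors' deposited table. The difference between Trib3 and Trib1 was not tested.

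Most known targets of ATF4 in tRNA charging and amino acid supply fell. Of 12 tRNA charging and export genes all 12 fell, where 23.4% of all genes tested did, between -1.57 and -0.81 with -1.22 as the median log2 fold change. The synthetase genes Yars (-1.57 ± 0.11 SE), Nars (-1.43 ± 0.14), Tars (-1.32 ± 0.14) and Gars (-1.30 ± 0.12) led them in the authors' deposited table. Of 20 amino acid synthesis and import genes, 18 fell and 1 rose, with a median of -1.79, led in the authors' deposited table by Cth (-5.08 ± 0.30 SE), Bcat1 (-3.07 ± 0.47), Slc1a4 (-3.0 ± 0.24) and Phgdh (-2.72 ± 0.16). The 1 that rose was the cystine transporter gene Slc7a11 (0.84 ± 0.24 in the authors' deposited table).

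Targets in signalling and secretion were mixed. Of 12 tested, 7 fell and 3 rose, where 23.4% of all genes tested were lower and 25.5% higher. The median log2 fold change was -0.75. In the authors' deposited table the secreted glycoprotein gene Stc2 (-3.57 ± 0.29 SE), the lipoprotein receptor gene Vldlr (-3.48 ± 0.58, base mean 83.7) and Chac1, whose product degrades glutathione (-1.87 ± 0.22), fell. The 3 that rose were the secreted stress factor gene Gdf15 (1.98 ± 0.55, base mean 18.9) and the autophagy genes Sqstm1 (0.66 ± 0.22) and Map1lc3b (0.66 ± 0.17) in the authors' deposited table. The mTORC1 restraint genes Ddit4 (-0.59 ± 0.32, adjusted p = 0.12) and Sesn2 (0.15 ± 0.17, adjusted p = 0.48), named after their values were seen, did not pass in the authors' deposited table. Fgf21 had a base mean of 0.15 there and no adjusted p-value.

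None of 5 listed CHOP targets passed as lower in OHT, where 23.4% of all genes tested were lower and 25.5% higher. The list does not separate genes that CHOP raises from genes that it lowers. Of the 5, 2 rose and the other 3 did not pass, counts too small to set apart from those shares. The pro-apoptotic Bcl2l11 rose by 1.67 ± 0.23 (SE, adjusted p = 3.1e-12) and the death receptor gene Tnfrsf10b by 1.12 ± 0.32 (adjusted p = 0.0015) in the authors' deposited table. Ero1l, which reoxidises the disulfide isomerase (-0.35 ± 0.29, adjusted p = 0.33), Bbc3 (0.37 ± 0.20, adjusted p = 0.11) and Bcl2 (0.39 ± 0.64, adjusted p = 0.64) did not pass in the authors' deposited table. Tnfrsf10b and Bbc3 are also known targets of p53.

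Among 18 genes of the IRE1 and ATF6 arms, the other branches of the unfolded protein response, 5 fell and 2 rose. This is near the 48.9% called over all genes tested (23.4% lower and 25.5% higher), and the median log2 fold change was -0.31. In the authors' deposited table the secreted factor gene Manf (-0.88 ± 0.23 SE), Sdf2l1 (-0.83 ± 0.19), Pdia6 (-0.81 ± 0.22) and Xbp1, the factor that IRE1 activates by splicing (-0.67 ± 0.12), fell. The degradation factor gene Edem1 (0.65 ± 0.16) and the co-chaperone gene Dnajb9 (0.59 ± 0.23) rose in the authors' deposited table. The chaperone gene Hspa5, which restrains PERK, had a log2 fold change of -0.49 ± 0.25 (adjusted p = 0.095) and Calr, the most abundant of the list, -0.47 ± 0.31 (adjusted p = 0.20) in the authors' deposited table.

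**Figure D4:**
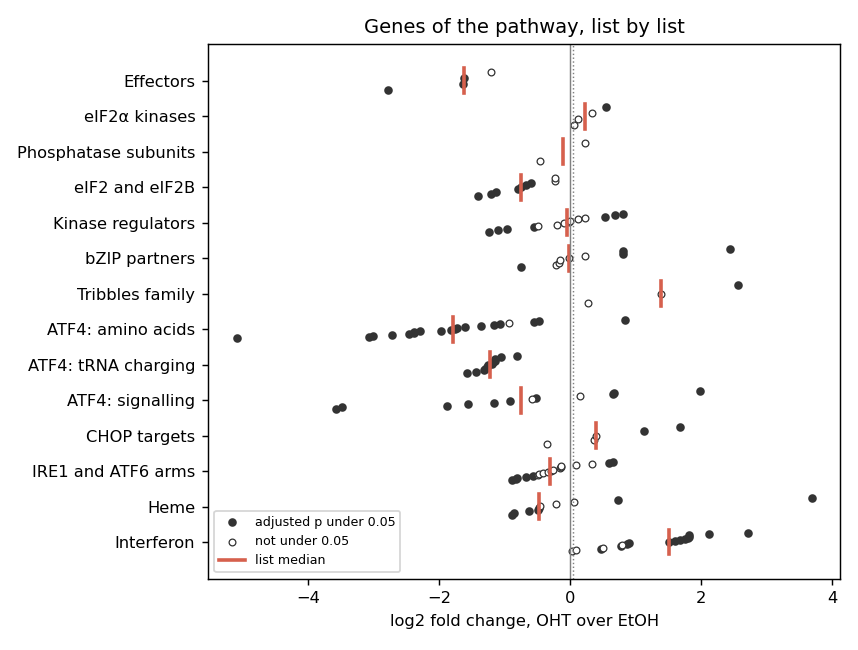
Log2 fold change (x axis, OHT over EtOH) of every tested gene in each list, filled where the adjusted p was under 0.05, with the list median as a red bar; the dotted line is the median over all genes, 0.05. The effector, amino acid and tRNA charging lists lie mostly below -1, the kinases lie between 0.07 and 0.55 and the interferon list lies above 0.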

How the data were processed

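Per the labels' protocols, RNeasy-purified RNA entered a TruSeq RNA library kit. The submitters' processing notes name STAR 2.7.2b, Trimmomatic 0.38.0, DESeq2, DESeq and HTSeq 0.9.1, and mm10, the UCSC name of GRCm38, as the build. The annotation and the strand setting are in none of the sources used here.

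The authors deposited 1 comparison table with 24221 rows and columns without names. It holds a deposited base mean, a signal in normalised reads, and a deposited log2 fold change with its SE on the log2 scale. Its deposited test statistic is a Wald score, with the p-value beside it before and after adjustment. The deposited score equalled fold over SE to within 7.6e-08, while recomputing the Benjamini-Hochberg adjustment over 13814 genes gave the deposited adjusted p-value with a difference of at most 2.3e-07. A base mean of 0 was listed for 6693 rows. Depth per library is not in the table.

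All calls are those of the authors' DESeq2 Wald test; samples were not tested again. Intervals are 1.96 SE. Group levels were computed from base mean and fold. The SE never exceeds 0.747 (690 genes lie within 1% of it) and drops to 0.482 for the genes of lowest base mean. This is the form a normal prior with an SD of 1.49 gives, and it was undone on that form, with the data taken to outweigh the prior. The arithmetic of the prior step and of the adjustments was checked on simulated data made with this same form of prior. Such data cannot test that form, nor whether the data outweigh the prior for genes of wide SE. Positions and transcripts are from GENCODE M21 on GRCm38 (principal isoform, best support, longest coding length), promoters from RefSeq on GRCm38.p6. Python 3.11.15, numpy 2.4.6, pandas 2.3.3, scipy 1.17.1 and matplotlib 3.10.9 were used. The members and lists were chosen with earlier results of these data known. Named genes are the members, Riok2, and in each list every gene if it has at most 5, otherwise the 4 largest changes past the threshold, the most abundant gene and those against the list's direction. For the cell markers counts are given, with the markers at 0 that are named. Some genes that the rule names are not reported here.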

Additional observations from a re-analysis of the deposited data

How the results depend on the processing

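The 3 falls of Atf4, Atf5 and Trib3 kept their direction and side of the threshold under all 9 alternatives, none of which draws on new data. An adjusted p under 0.01 or 0.001 and a log2 fold of at least 1 only re-read the deposited values. Undoing the prior kept the deposited adjusted p-values and the sign of each fold, so it could not change a call. A Holm adjustment and adjustment over genes whose base mean reached 100 or over every gene with a p-value used the same p-values. The others were recentring (a shift of -0.02) and scaling to summed reads (a shift of 0.07 on the log2 scale, chosen after seeing the data). The count of higher members was 0 in place of 1 with a Holm adjustment and with a log2 fold of at least 1, by construction of these stricter rules. At an unadjusted p under 0.05 of the authors' Wald test it was 2, and no other tool was run. The fold of Eif2ak4 was -0.01 when scaled to summed reads, with an adjusted p of 0.98. Of the 131 other genes tested in the pathway lists, 60 fell and 30 rose, where 23.4% of all genes were lower and 25.5% higher. With a log2 fold of at least 1, 37 fell, where 7.3% of all genes tested did, and 15 rose (20.9% of all genes called in either direction). At an adjusted p under 0.001, 53 fell and 15 rose (30.7% in either direction). With a Holm adjustment, 42 fell and 11 rose (21.2% in either direction). For single lists, 48 of 306 counts moved by over 1.5 times. Low read numbers (a base mean under 100) limit Fgf21 and 14 of the 131, which are Trib2, Gdf15, Vldlr, Cbs, Alas2 and 9 interferon genes. No paired analysis was possible because the deposited table has no values per sample, and for the same reason no replicate could be left out.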

Other observations

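The wider ATF and CREB family, a list chosen after the data were seen, showed no common direction. Of 19 family members tested besides Atf4 and Atf5, 6 rose, 2 fell and 11 did not pass. This is near the 48.9% called over all genes tested (25.5% higher and 23.4% lower). The median log2 fold change was 0.39, beside 0.05 over all genes tested. The rises in the authors' deposited table were those of Atf3 described above, Creb5 (1.77 ± 0.44 SE), Creb3l2 (1.26 ± 0.35), Crebl2 (1.18 ± 0.18), Creb3 (0.79 ± 0.19) and Atf7 (0.79 ± 0.32). A base mean under 100 limits 5 of the 19, Creb5 (base mean 43.8 in the authors' deposited table) among them. Creb3 and Creb3l2 encode factors that are held in the membrane of the endoplasmic reticulum, as is that of Atf6, which fell by 0.57 ± 0.12 (adjusted p = 1.7e-05) in the authors' deposited table. Atf1 fell by 0.37 ± 0.15 (adjusted p = 0.026), and Creb1 (-0.10 ± 0.12, adjusted p = 0.51) did not pass in the authors' deposited table.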
